A study of Nicotiana tabacum with 6 samples.

Results

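Cytochrome P450 monooxygenases of E-class group I were followed in leaves of tobacco (Nicotiana tabacum), as the gene models whose deposited domain description names that group. The table listed 508 such models among 69500. Of these, 176 had at least 1 FPKM (sequenced fragments corrected for transcript length and library size) in at least 3 of the 6 libraries, and these 176 are the members described here. MuGDH64, an aphid-resistant line obtained by cobalt gamma irradiation of GDH64 and said by the study's title to carry an NtCYC mutation, was set against GDH64, the unirradiated parent, with 3 RNA sequencing libraries of leaf for each line. MuGDH64 is a single selected mutant lineage, and irradiation can alter many loci, so the NtCYC mutation and any other lesion cannot be told apart here. Field-grown leaf punches were pooled over plants of a plot, and no label ties a library to a sampling date, a season or a field block. Nothing says whether the 3 libraries of a line came from separate plots, so p-values measure only the spread between these libraries, which may be technical.

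Cytochrome P450 enzymes are haem proteins that insert an oxygen atom into small molecules, usually as a hydroxylation. Plant P450s of the microsomal, E-class type sit in the endoplasmic reticulum membrane and receive electrons from NADPH-cytochrome P450 reductase, with cytochrome b5 as a second donor for some of them. Group I is a sequence signature shared by many plant P450s of specialized metabolism. In tobacco the P450 superfamily is known for the trichome hydroxylation of cembratrienol to cembratriendiol, for the demethylation of nicotine and for the oxidation steps of phenylpropanoids and of the phytoalexin capsidiol. The domain text does not say which substrate a model acts on, and the table pairs no model with a gene symbol, so no such role is given to any single member below.

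Of the 332 group I models that did not pass the value filter, 137 were listed at 0 in all 6 libraries, 176 had some value but stayed under 1 FPKM everywhere, and 19 reached 1 FPKM in 1 or 2 libraries. The highest single value among them was 16.8 FPKM for Nitab4.5_0009901g0040 in GDH64 replicate 3, while its other 5 libraries lay between 0 and 2.53 FPKM. This model was picked out after its values had been seen. At the edge of the filter, Nitab4.5_0011391g0010 was just inside, with 0.84, 1.03 and 0.51 FPKM in MuGDH64 and 1.46, 1.82 and 0.15 FPKM in GDH64. Nitab4.5_0001643g0120 was just outside, with 1.44, 0.38 and 0.76 FPKM in MuGDH64 and 1.23, 0.73 and 0.97 FPKM in GDH64.

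Of the 176 members, 144 had at least 1 FPKM in every library. A further 8 reached that value in the 3 MuGDH64 libraries only, and 3 in the 3 GDH64 libraries only. Those 11 members entered the set through the line in which they were high, so their difference between the lines is partly fixed by the filter. The conserved site of P450s, the signature around the cysteine that binds the haem iron, was named in the description of 401 of the 508 models and of 151 of the 176 members. The other 25 members carried no mention of it.

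The library facts that touch these values are few. Summed FPKM over all gene models was 634425 to 719776 in MuGDH64 and 728572 to 756316 in GDH64, with the lowest total in MuGDH64 replicate 3, and the sequencing depth is unknown. Across the 32340 gene models tested the median log2 fold change of MuGDH64 over GDH64 was -0.18. Each log2 change given below was therefore taken relative to that median, on the log2(FPKM + 1) scale, which understates changes of low values. Adjusted p-values are Benjamini-Hochberg values of the limma test over all tested gene models, and belong to the change before that subtraction. "Rose", "fell" and "called" refer to an adjusted p under 0.05. Chlorophyll a/b binding protein genes, which mark leaf mesophyll, were summed at 7717 to 8656 FPKM in MuGDH64 and 8418 to 9064 FPKM in GDH64. Rubisco small subunit genes stood at 7448 to 7618 FPKM in MuGDH64 and 6579 to 7665 FPKM in GDH64. Seed storage protein genes, which mark seeds, were summed at 20.6 to 23.4 FPKM in MuGDH64 and 21.4 to 24.9 FPKM in GDH64. Berberine bridge enzyme-like genes, a family with members in the nicotine pathway of roots, were summed at 64.4 to 70.3 FPKM in MuGDH64 and 66.1 to 76.1 FPKM in GDH64.

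The summed level of group I transcripts overlapped between the lines, while single members moved in both directions. All 508 models together summed to 2296, 2262 and 2131 FPKM in MuGDH64 and to 2224, 2278 and 2328 FPKM in GDH64. The lines overlapped on that sum, with means of 2230 ± 87.4 FPKM in MuGDH64 and 2277 ± 52.2 FPKM in GDH64 (SD, n = 3 libraries each). As a share of all summed FPKM this was 0.319%, 0.321% and 0.336% in MuGDH64 and 0.296%, 0.301% and 0.320% in GDH64. In bulk leaf, fewer cells of a type and less RNA per cell cannot be told apart.

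Levels inside the family were steep. The median member stood at 5.36 FPKM over the 6 libraries, against 6.53 FPKM for all tested gene models. Of the 176 members, 85 averaged under 5 FPKM, 52 at least 10 FPKM and 10 at least 50 FPKM. The 6 most abundant members made up 30.4%, 30.9% and 33.0% of all group I FPKM in MuGDH64 and 29.2%, 27.1% and 29.4% in GDH64.

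The most abundant member, Nitab4.5_0006692g0010, had 161, 165 and 191 FPKM in MuGDH64 and 126, 116 and 134 FPKM in GDH64. It rose in MuGDH64 by a relative log2 change of 0.63 (SE 0.10, limma adjusted p = 0.0232), and every MuGDH64 library lay above every GDH64 library. Its adjusted p was over the threshold without the value filter (0.0502) and without GDH64 replicate 1 (0.0723), GDH64 replicate 2 (0.0730), MuGDH64 replicate 2 (0.0573) or MuGDH64 replicate 3 (0.0544). The second, Nitab4.5_0007566g0010, had 150, 146 and 164 FPKM in MuGDH64 and 114, 110 and 134 FPKM in GDH64, again without overlap. It just missed the threshold (relative log2 change 0.54, SE 0.10, limma adjusted p = 0.0520), and passed it in 5 of the 14 alternatives listed in the closing section.

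The third member by level moved the other way. Nitab4.5_0002545g0050 had 113, 107 and 88.8 FPKM in MuGDH64 and 142, 145 and 144 FPKM in GDH64, and it fell (relative log2 change -0.31, SE 0.10, limma adjusted p = 0.0212). It was the most abundant group I transcript in GDH64 and held rank 4 in MuGDH64. After median-centring of the libraries its call was lost (limma adjusted p = 0.0532), as it was without GDH64 replicate 1 (0.0644), GDH64 replicate 2 (0.0616) or MuGDH64 replicate 2 (0.0504).

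The next members by level were not called as deposited. Nitab4.5_0012198g0010 had 124, 117 and 117 FPKM in MuGDH64 and 115, 99.9 and 103 FPKM in GDH64; the lines did not overlap, but the change missed the threshold (limma adjusted p = 0.239) in all settings except median-centring (0.0435). Nitab4.5_0000532g0070 had 80.4, 93.5 and 83.1 FPKM in MuGDH64 and 77.0, 75.8 and 86.7 FPKM in GDH64, with overlapping lines. Nitab4.5_0003564g0010 had 69.9, 69.0 and 60.3 FPKM in MuGDH64 and 74.8, 69.4 and 83.1 FPKM in GDH64, also overlapping. Of the 10 members at or above 50 FPKM, 1 rose and 3 fell. The share of all gene models at that level was not taken. Among all tested gene models from 8.66 FPKM up, 2.60% rose and 12.7% fell. With so few members, these counts are not read as a result about them. Besides Nitab4.5_0002545g0050, the members that fell, chosen here after their values were seen, were Nitab4.5_0000037g0210 with a mean of 58.3 FPKM in MuGDH64 and 77.7 FPKM in GDH64, and Nitab4.5_0001129g0090 with 56.4 FPKM in MuGDH64 and 77.6 FPKM in GDH64. Neither of the 2 was called after median-centring, and Nitab4.5_0000037g0210 was called in 5 of the 14 alternatives only.

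**Figure D1:**
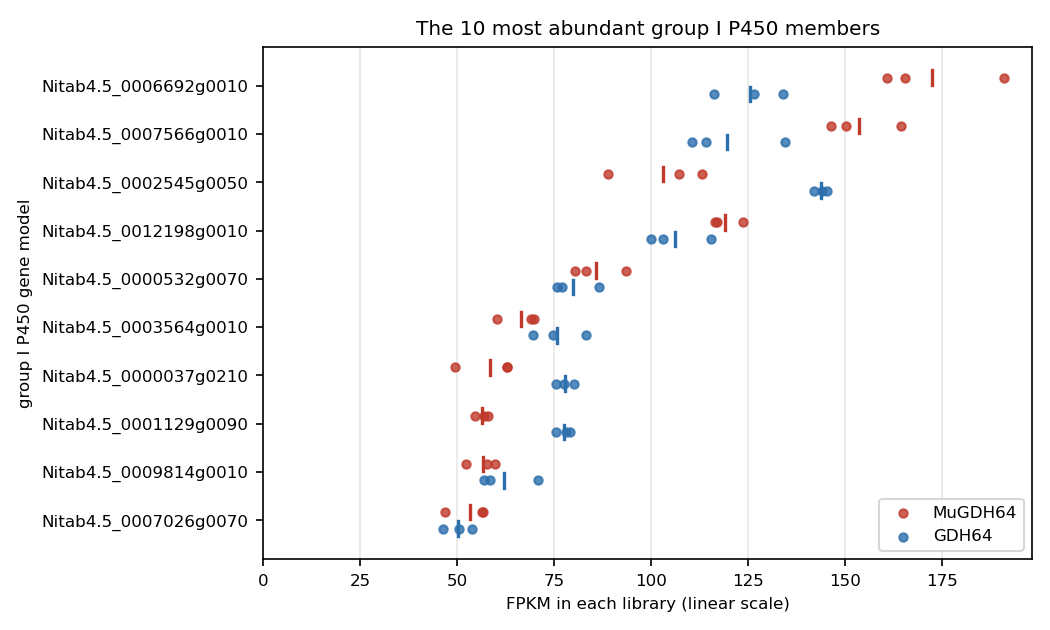
FPKM of the 10 most abundant group I P450 members in each library (x axis, linear scale from 0), with MuGDH64 in red above GDH64 in blue; points are libraries and vertical ticks are means of 3. The red points lie right of the blue ones for Nitab4.5_0006692g0010 (161 to 191 FPKM in MuGDH64 against 116 to 134 in GDH64) and left of them for Nitab4.5_0002545g0050 (88.8 to 113 FPKM in MuGDH64 against 142 to 145 in GDH64).

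Across the family 51 of 176 members (29.0%) differed between the lines by the limma test, against 11.9% of all tested gene models. As deposited, 20 members rose (11.4%, against 2.20% of all tested gene models) and 31 fell (17.6%, against 9.74%). At least 2-fold changes were counted on the log2(FPKM + 1) scale before the all-gene median was subtracted. They were called for 10 members upward (all tested gene models 0.767%) and 4 downward (1.22%). Among the 144 members with at least 1 FPKM in every library, 10 rose and 26 fell, which is 6.94% and 18.1%, against 1.86% and 9.91% of the gene models that met the same condition. No member was listed at 0 in all 3 libraries of one line while averaging 1 FPKM or more in the other.

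The split between rises and falls depended on how the libraries were scaled. Rises were 39.2% of the called members with the values as deposited. They were 62.5% with quantile-normalized libraries and 76.1% with median-centred ones. Quantile normalization gave 30 members higher and 18 lower, against 4.43% and 5.17% of all tested gene models (9.60% in either direction). Median-centring gave 35 and 11, against 6.0% and 4.28% (10.3% in either direction). All 20 members that rose as deposited were also called higher under both scalings. Of all tested gene models, 2.20% rose as deposited and 2.16% were called higher on all 3 scales, so nearly all rises were kept there too. Both scalings gave more rises and fewer falls over all tested gene models than the deposited values did. Keeping a rise was therefore easier than keeping a fall. Of the 31 that fell, 18 were called lower after quantile normalization and 11 under both scalings, against 4.24% of all tested gene models called lower on all 3 scales.

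Leaving out any 1 library lowered both counts. Without MuGDH64 replicate 1, 2 or 3 the members called higher numbered 10, 9 and 10. The 8 members that reached 1 FPKM only in MuGDH64 no longer met the value filter in those fits. The 3 that reached it only in GDH64 likewise dropped out without a GDH64 library. Untested members were counted as not called. Ranges for all gene models are given in the closing section. Falls numbered 11, 16 and 20 without GDH64 replicate 1, 2 or 3, and 19, 14 and 16 without MuGDH64 replicate 1, 2 or 3. Of the 20 members that rose, 9 were called higher without each of the 6 libraries in turn; of the 31 that fell, 9 were called lower in each of those fits. No called member changed the sign of its log2 fold change under any of the 14 alternatives.

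**Figure D2:**
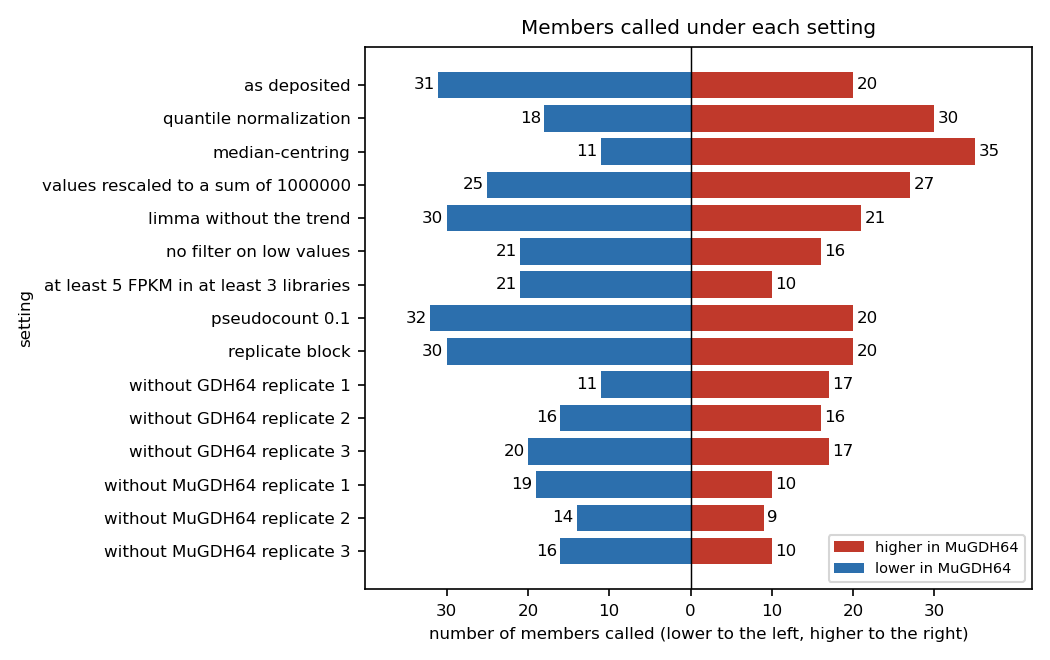
Number of the 176 group I P450 members called higher in MuGDH64 (red, right) and lower (blue, left) by limma at an adjusted p under 0.05, for the deposited values and each of 14 alternatives (rows). The deposited values give 20 and 31, quantile normalization 30 and 18, and median-centring 35 and 11.

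The changes of members were spread more widely than those of the transcriptome. Relative log2 changes ran from -1.20 to 2.06, with a median of 0.07 and a middle range from -0.21 to 0.34, where all tested gene models had a middle range from -0.17 to 0.17. A relative change within 0.5 of zero was found for 131 members (74.4%), against 88.8% of all tested gene models. The median SD of log2 values within a line was 0.156 for members and 0.165 for all tested gene models. Pearson's r of log2 values across members, which share libraries and are no independent replicates, was 0.975 to 0.986 between libraries of one line and 0.908 to 0.934 between libraries of different lines. Across all tested gene models the corresponding ranges were 0.969 to 0.980 and 0.947 to 0.961.

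**Figure D3:**
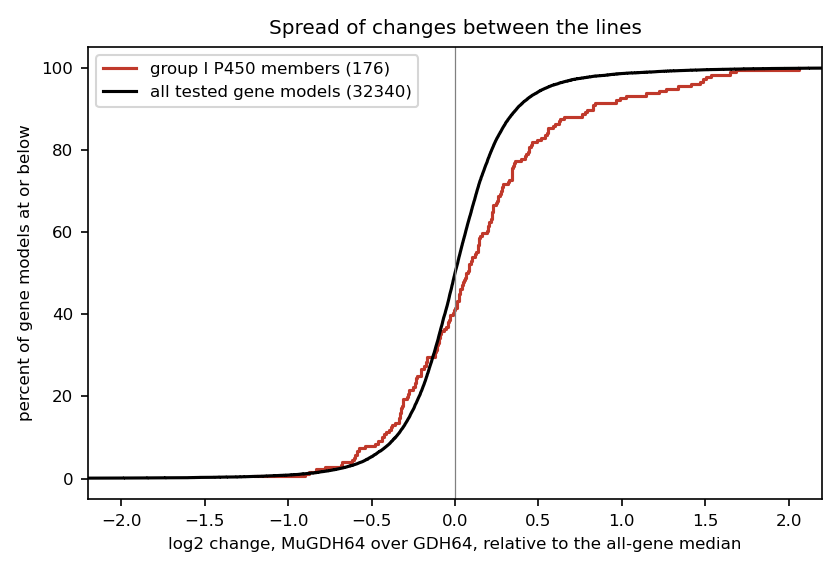
Cumulative share of gene models (y axis, percent) at or below each log2 change of MuGDH64 over GDH64, relative to the median of all tested gene models (x axis), for the 176 group I members (red) and all 32340 tested gene models (black). The red curve is flatter, with a middle range from -0.21 to 0.34 against -0.17 to 0.17, and it lies below the black one on the right-hand side; the axis is limited to 2.2 on either side and a few gene models lie beyond it.

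Split by level into bins of nearly equal size, the 59 weakest members (up to 2.94 FPKM) held 10 rises and 9 falls. The 58 members of the middle bin held 5 rises and 8 falls, and the 59 strongest (from 8.71 FPKM) held 5 rises and 14 falls. Among all tested gene models of the same level ranges, 2.31%, 1.65% and 2.60% rose and 5.25%, 9.47% and 12.7% fell. The members that rose had a median level of 2.94 FPKM and those that fell one of 6.71 FPKM. The difference between the bins was not tested. All 8 members that reached 1 FPKM only in the MuGDH64 libraries were called higher, a pattern that the filter favours, and 142 of all tested gene models (0.439%) were called higher with a GDH64 mean under 1 FPKM and a MuGDH64 mean of at least 1 FPKM. In the other direction 4 members were called lower with a MuGDH64 mean under 1 FPKM and a GDH64 mean of at least 1 FPKM, against 0.683% of all tested gene models.

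**Figure D4:**
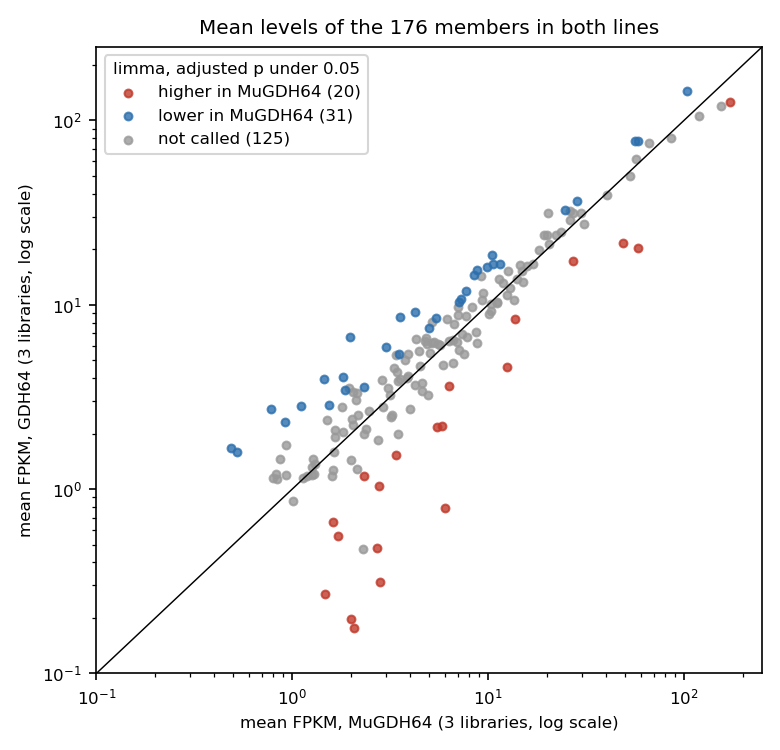
Mean FPKM of each of the 176 members in MuGDH64 (x axis) and GDH64 (y axis), both on log scales, with n = 3 libraries each; the line marks equal means. The 20 members called higher, in red, lie below the line, 8 of them at a GDH64 mean under 1 FPKM, and the 31 called lower, in blue, lie above it.

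Among members above 10 FPKM, the largest rise was that of Nitab4.5_0013195g0010, with 62.8, 58.9 and 52.3 FPKM in MuGDH64 and 18.3, 24.4 and 18.4 FPKM in GDH64. The lines were far apart (relative log2 change 1.65, SE 0.13, limma adjusted p = 4.89e-04). By level it held rank 8 of the 176 members in MuGDH64 and rank 26 in GDH64. Its description lacks the conserved haem-binding site.

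Another well-expressed member, Nitab4.5_0020114g0010, had 48.4, 53.1 and 44.9 FPKM in MuGDH64 and 20.3, 17.2 and 27.3 FPKM in GDH64. Its lines did not overlap (relative log2 change 1.34, SE 0.16, limma adjusted p = 0.00382), and it held rank 12 in MuGDH64 and rank 24 in GDH64. At a lower level, Nitab4.5_0001857g0030 had 13.1, 12.6 and 11.9 FPKM in MuGDH64 and 4.0, 4.08 and 5.62 FPKM in GDH64 (relative log2 change 1.47, SE 0.14, limma adjusted p = 0.00119). Its 3 MuGDH64 values were close together, and it held rank 39 in MuGDH64 and rank 98 in GDH64. Nitab4.5_0001461g0070 had 5.48, 5.79 and 6.19 FPKM in MuGDH64 and 2.27, 2.30 and 2.03 FPKM in GDH64 (relative log2 change 1.27, SE 0.12, limma adjusted p = 0.00149), with little spread in either line. These 4 members were called higher in each of the 14 alternatives.

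Among called members averaging at least 2 FPKM in the higher line, another 4 of the 8 largest rises were under 1 FPKM in every GDH64 library. Nitab4.5_0007406g0020 had 7.14, 2.81 and 8.21 FPKM in MuGDH64 and 0.97, 0.77 and 0.63 FPKM in GDH64. It had the largest relative log2 change of the 176 members, 2.06, and the largest SE of those 8, with MuGDH64 replicate 2 well below the other MuGDH64 libraries (SE 0.30, limma adjusted p = 0.00727). Nitab4.5_0010289g0010 had 3.90, 2.24 and 2.30 FPKM in MuGDH64 and 0.30, 0.28 and 0.36 FPKM in GDH64 (relative log2 change 1.69, SE 0.19, limma adjusted p = 0.00288). Nitab4.5_0009277g0010 had 2.75, 2.00 and 1.43 FPKM in MuGDH64 and 0.12, 0.26 and 0.15 FPKM in GDH64 (relative log2 change 1.53, SE 0.19, limma adjusted p = 0.00444). For all 3 the lowest MuGDH64 library was above the highest GDH64 library. The remaining one, Nitab4.5_0000390g0030, is described with its neighbours below. Each of the 4 was called higher in the 10 alternatives that tested it; with a MuGDH64 library left out or with the 5 FPKM filter they no longer met the value filter.

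The other 12 members that rose, which include some under that 2 FPKM minimum, had relative log2 changes from 0.63 to 1.49 and levels from 0.87 to 149 FPKM over the 6 libraries, with limma adjusted p from 0.00363 to 0.0409. In all 20 members that rose the lines did not overlap. Lines that do not overlap upward were found for 32 members (18.2%), against 5.68% of all tested gene models. Downward they were found for 58 members (33.0%), which is near the 31.8% of all tested gene models. Of the 20 members that rose, 15 were called higher in every alternative that tested them, but only 7 in all 14 alternatives. The 8 members that reached 1 FPKM only in MuGDH64 were not tested with a MuGDH64 library left out.

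**Figure D5:**
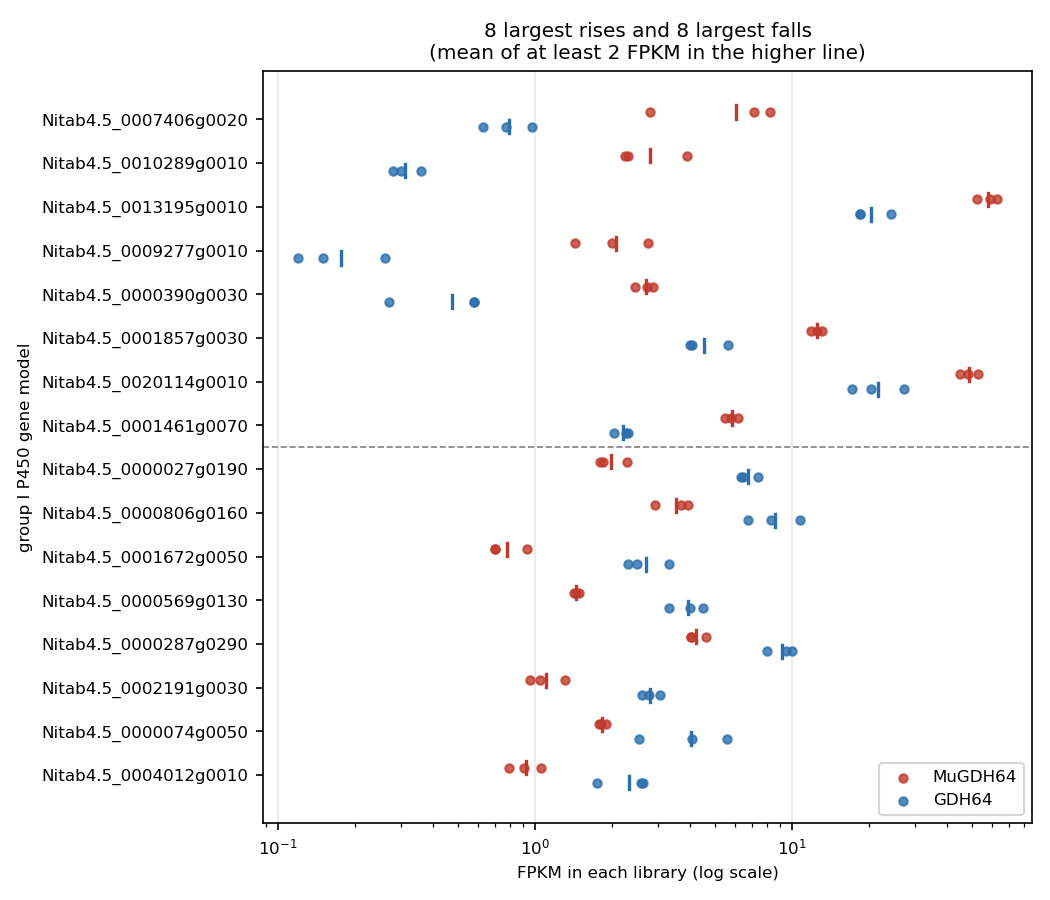
FPKM in each library (x axis, log scale) of the 8 largest rises (above the dashed line) and the 8 largest falls (below it) among called group I members with a mean of at least 2 FPKM in the higher line; MuGDH64 is red and drawn above GDH64 in blue, points are libraries and ticks are means of 3. The lines do not overlap in any of the 16 rows, by the rule that chose them, and 4 of the rising members lie under 1 FPKM in every GDH64 library.

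The median relative log2 change was 1.18 over the 20 members that rose and -0.46 over the 31 that fell. Subtracting the all-gene median of -0.18 enlarges each rise and shrinks each fall. These medians are therefore not on the scale on which the members were called. The largest fall was that of Nitab4.5_0000027g0190, with 1.84, 2.29 and 1.79 FPKM in MuGDH64 and 7.38, 6.45 and 6.32 FPKM in GDH64. Every MuGDH64 library lay far below every GDH64 library (relative log2 change -1.20, SE 0.13, limma adjusted p = 6.98e-04). It stood at rank 141 of 176 in MuGDH64 and at rank 72 in GDH64.

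Nitab4.5_0000806g0160 had 3.70, 3.95 and 2.93 FPKM in MuGDH64 and 8.30, 10.8 and 6.76 FPKM in GDH64 (relative log2 change -0.90, SE 0.17, limma adjusted p = 0.00756). Nitab4.5_0000287g0290 had 4.05, 4.62 and 4.05 FPKM in MuGDH64 and 8.03, 10.1 and 9.46 FPKM in GDH64 (relative log2 change -0.78, SE 0.12, limma adjusted p = 0.00329). In both the lines did not overlap, and both kept the call in each of the 14 alternatives, as did Nitab4.5_0000027g0190.

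Of the weaker members that fell, Nitab4.5_0000569g0130 had 1.42, 1.44 and 1.49 FPKM in MuGDH64 and 4.02, 4.5 and 3.33 FPKM in GDH64 (relative log2 change -0.83, SE 0.14, limma adjusted p = 0.00422). Nitab4.5_0001672g0050 had 0.93, 0.70 and 0.70 FPKM in MuGDH64 and 2.49, 3.32 and 2.31 FPKM in GDH64 (relative log2 change -0.88, SE 0.16, limma adjusted p = 0.00597). Nitab4.5_0002191g0030 had 1.31, 1.05 and 0.96 FPKM in MuGDH64 and 2.77, 3.07 and 2.60 FPKM in GDH64 (relative log2 change -0.68, SE 0.14, limma adjusted p = 0.00845). All 3 stayed called in every alternative that tested them. Nitab4.5_0001672g0050 passed the filter only through GDH64 and was tested in 10 of the 14 alternatives. With a GDH64 library left out or with the 5 FPKM filter it no longer met the value filter.

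The last pair of the 8 largest falls under the same 2 FPKM minimum depended on single libraries and on the scaling. Nitab4.5_0000074g0050 had 1.89, 1.78 and 1.80 FPKM in MuGDH64 and a wide 4.07, 5.58 and 2.53 FPKM in GDH64 (relative log2 change -0.62, SE 0.21, limma adjusted p = 0.0450). Its call was lost in 10 of the 13 alternatives that tested it, among them quantile normalization (adjusted p = 0.0937) and the fits without GDH64 replicate 1 (0.108) or 2 (0.106) or without MuGDH64 replicate 1 (0.0852), 2 (0.0980) or 3 (0.119), over a range from 0.0122 to 0.119. Nitab4.5_0004012g0010 had 0.79, 0.91 and 1.06 FPKM in MuGDH64 and 2.58, 2.63 and 1.75 FPKM in GDH64 (relative log2 change -0.60, SE 0.16, limma adjusted p = 0.0199). Its call was lost after median-centring (limma adjusted p = 0.0587) and without GDH64 replicate 1 (0.0665), GDH64 replicate 2 (0.0609), MuGDH64 replicate 1 (0.0544) or MuGDH64 replicate 2 (0.0531).

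The other 23 members that fell, again including some under that minimum, had relative log2 changes from -0.68 to -0.17 and levels from 1.06 to 123 FPKM, with limma adjusted p from 0.00674 to 0.0475. Of all 31 members that fell, 10 were called lower in every alternative that tested them, but only 6 in all 14 alternatives. Summed over the 20 members that rose, MuGDH64 had 379 ± 5.79 FPKM and GDH64 213 ± 13.1 FPKM; summed over the 31 that fell, MuGDH64 had 391.9 ± 29.9 FPKM and GDH64 580 ± 13.2 FPKM (SD, n = 3 libraries each). These sums describe members chosen by the same comparison and carry no test.

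Few members lay on a shared scaffold. The identifiers of these gene models carry a scaffold number, and the 176 members had 161 different ones. Of these numbers 12 were shared by 2 or more members, 27 members in all. Before the value filter, the 508 group I models had 401 different numbers, with up to 8 models sharing a number. Scaffold numbers 0000390 and 0000883, described below, also held group I models that did not pass the filter. Of those 12 scaffold numbers, 7 held no called member, 2 held rises only, 3 held falls only and none held both. For comparison, 29.0% of all 176 members and 11.9% of all tested gene models were called. Such counts by scaffold were not taken over all gene models. A number with a single called member cannot hold both directions. A pair or more of members called in one direction occurred on 1 of the 12.

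That scaffold, number 0000390, held 4 members, 3 of them with consecutive model numbers. Nitab4.5_0000390g0020 had 3.41, 3.44 and 3.25 FPKM in MuGDH64 and 1.55, 1.59 and 1.45 FPKM in GDH64 (relative log2 change 0.96, SE 0.13, limma adjusted p = 0.00738). Nitab4.5_0000390g0030 had 2.46, 2.73 and 2.89 FPKM in MuGDH64 and 0.27, 0.58 and 0.58 FPKM in GDH64 (relative log2 change 1.50, SE 0.16, limma adjusted p = 0.00210). Both rose, with narrow spreads except for Nitab4.5_0000390g0030 in GDH64, where its values were low. Both were called in every alternative that tested them. Nitab4.5_0000390g0030 passed the filter only through MuGDH64 and was tested in 10 of the 14, none of them without a MuGDH64 library. The next model, Nitab4.5_0000390g0040, had 2.33, 2.28 and 1.85 FPKM in MuGDH64 and 3.19, 2.34 and 2.00 FPKM in GDH64, with overlapping lines (limma adjusted p = 0.569). Nitab4.5_0000390g0100, further along, had 5.12, 4.28 and 3.91 FPKM in MuGDH64 and 5.17, 6.80 and 4.80 FPKM in GDH64, also overlapping (limma adjusted p = 0.258). Whether the changes of these neighbours differ from each other was not tested.

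Scaffold number 0000883 held 3 consecutive members at a similar level. Nitab4.5_0000883g0190 had 12.2, 9.66 and 9.80 FPKM in MuGDH64 and 16.1, 15.9 and 17.8 FPKM in GDH64, and it fell (relative log2 change -0.44, SE 0.12, limma adjusted p = 0.0149), although not after median-centring (0.0561) or without MuGDH64 replicate 2 (0.0553). Nitab4.5_0000883g0170 had 12.9, 10.8 and 10.2 FPKM in MuGDH64 and 13.0, 15.2 and 13.4 FPKM in GDH64 (limma adjusted p = 0.161). Nitab4.5_0000883g0180 had 14.1, 15.9 and 12.2 FPKM in MuGDH64 and 14.03, 13.9 and 13.5 FPKM in GDH64, with overlapping lines (limma adjusted p = 0.940). Tobacco carries the genomes of both of its parental species, and group I genes often lie in tandem, so a read may fit several near-identical models; how the counting treated such reads is not known, and single values are uncertain to that extent.

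Calls occurred among members with and without the conserved haem-binding site. Of the 151 with the site 16 rose (10.6%) and 26 fell (17.2%). Of the 25 without it 4 rose (16%) and 5 fell (20%). Among all tested gene models 2.20% rose and 9.74% fell. Whether the called shares with and without the site differ was not tested. The median level was 5.27 FPKM with the site and 5.72 FPKM without it. Among the 8 largest rises under the 2 FPKM minimum, Nitab4.5_0007406g0020, Nitab4.5_0013195g0010 and Nitab4.5_0001857g0030 lacked the site, whereas all 8 such falls had it; the difference was not tested.

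Few P450 genes outside group I passed the filter. Of 173 such models 30 were tested, of which 1 rose (3.33%) and 4 fell (13.3%) as deposited, near the 2.20% and 9.74% of all tested gene models. After quantile normalization 2 rose and 1 fell. A group IV model, Nitab4.5_0007569g0010, rose to 21.7 ± 1.27 FPKM in MuGDH64, against 8.68 ± 0.423 FPKM in GDH64 (SD, n = 3 libraries each; limma adjusted p = 3.15e-04). Whether the called shares of group I and of the other P450 genes differ was not tested.

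The redox partners of P450s are read here against the 2.20% of all tested gene models that rose and the 9.74% that fell. Of 6 tested reductases of the NADPH-cytochrome P450 reductase type, none rose and 1 fell. That model, Nitab4.5_0005913g0030, the most abundant of them, had 61.4, 65.3 and 52.3 FPKM in MuGDH64 and 86.2, 99.5 and 75.6 FPKM in GDH64 (relative log2 change -0.36, limma adjusted p = 0.0294), and it was not called after median-centring. A second one, Nitab4.5_0000131g0220, whose description names NADPH-cytochrome P450 reductase first, had 35.7, 35.9 and 28.5 FPKM in MuGDH64 and 43.8, 49.5 and 41.3 FPKM in GDH64 and missed the threshold (limma adjusted p = 0.0557); it was picked after its values were seen. Of 38 tested cytochrome b5 domain genes, 1 rose (2.63%) and 3 fell (7.89%), which is near those shares. That list also takes in fused desaturases, steroid-binding proteins, ATPase subunit H models and a glycosyl transferase. The one that rose, Nitab4.5_0002641g0100, had 7.30 ± 0.825 FPKM in MuGDH64 and 4.33 ± 0.488 FPKM in GDH64 (SD, n = 3 libraries each; limma adjusted p = 0.0189). Of 8 tested models whose description holds the NADH-cytochrome b5 reductase signature none was called by limma, with 4 at an unadjusted p under 0.05. These 8 are not all b5 reductases: Nitab4.5_0002857g0010 and Nitab4.5_0023821g0010, both among the 4, carry molybdopterin domains and are described as nitrate reductases. Nitab4.5_0002857g0010, with the smallest p of the 8, had 35.6 ± 3.12 FPKM in MuGDH64 and 46.7 ± 4.60 FPKM in GDH64 (SD, n = 3 libraries each; limma adjusted p = 0.0564).

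Haem supply and the enzymes on either side of P450 steps were set against the same shares of all tested gene models, 2.20% higher and 9.74% lower. Of 38 haem and tetrapyrrole synthesis genes 1 rose (2.63%) and none fell, with 6 at an unadjusted p under 0.05 in limma. The gene that rose, Nitab4.5_0000383g0140, had 71.0 ± 2.06 FPKM in MuGDH64 and 47.9 ± 6.48 FPKM in GDH64 (SD, n = 3 libraries each; limma adjusted p = 0.0149). Of 37 terpene synthase domain genes, whose products are substrates of some P450s, 9 rose (24.3%) and 6 fell (16.2%), and the one with the smallest p was Nitab4.5_0003738g0070 at 1.02 ± 0.0436 FPKM in MuGDH64 and 9.00 ± 0.0451 FPKM in GDH64 (SD, n = 3 libraries each; limma adjusted p = 1.99e-05). Of 12 plant O-methyltransferases, which methylate hydroxyl groups on phenolic compounds, 1 rose (8.33%) and 2 fell (16.7%). Nitab4.5_0002196g0060 had 44.8 ± 2.98 FPKM in MuGDH64 and 131 ± 4.58 FPKM in GDH64 (SD, n = 3 libraries each), a fall with a limma adjusted p of 4.45e-05.

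The lists that mark tissues moved as follows. Of 78 chlorophyll a/b binding protein genes 4 rose (5.13%) and 14 fell (17.9%) as deposited, against 2.20% and 9.74% of all tested gene models. After quantile normalization 8 rose (10.3%) and 7 fell (8.97%), against 4.43% and 5.17%, and after median-centring 16 rose (20.5%) and 7 fell (8.97%), against 6.0% and 4.28%. None of the 8 Rubisco small subunit genes, the 2 tested seed storage genes or the 5 tested berberine bridge enzyme-like genes was called by limma as deposited, with 3, 0 and 0 at an unadjusted p under 0.05. Of the 8 Rubisco genes, 2 were called higher after quantile normalization and 3 after median-centring, with none lower under either scaling. Among all tested gene models 4.43% and 6.0% were called higher there. No tested seed storage or berberine bridge enzyme-like gene was called under either scaling. Of 24 pollen allergen and pollen Ole e 1 genes, a family also expressed outside pollen, 1 rose (4.17%) and 7 fell (29.2%) as deposited, with sums of 418 to 445 FPKM in MuGDH64 and 466 to 516 FPKM in GDH64. The one that rose, Nitab4.5_0000194g0060, had the smallest p of that list. It had 54.7 ± 6.31 FPKM in MuGDH64 and 16.6 ± 4.87 FPKM in GDH64 (SD, n = 3 libraries each, limma adjusted p = 0.00216). The part of these tissue lists in the changes of the group I members was not tested.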

How the data were processed

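Leaf RNA of 3 MuGDH64 and 3 GDH64 libraries was sequenced as paired ends, per the labels' protocols. The submitters' processing notes name TopHat2 and Cufflinks without versions or settings. The sources used here state no genome build or annotation beyond the prefix Nitab4.5 that the gene identifiers carry. The deposited table gives 1 value per gene model and library; the header names no unit, and the authors' values were taken as FPKM because they are not whole numbers and Cufflinks reports FPKM. Columns were matched by library name, and the authors' mean columns were not used.

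The lines were compared by limma 3.58.1 (R 4.3.3) after a log2(FPKM + 1) transformation, the line being the only term and the variance prior following mean level. This covered the 32340 gene models that reached 1 FPKM in 3 or more libraries; the tests were two-sided with Benjamini-Hochberg adjustment and a threshold of 0.05. The procedure was tested on simulated data. Alternatives are given in the closing section. Tables and plots used Python 3.11.15, pandas 2.3.3 and matplotlib 3.10.9.

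Members were found by text match. The 12 comparison lists are text patterns; those for cytochrome b5 and pollen genes were narrowed after they were seen to match cytochrome b561 and expansins. The members and lists were chosen with earlier results of these data known. Named members are the 8 largest rises and 8 largest falls among called members with non-overlapping lines and a mean of at least 2 FPKM in the higher line, the 6 most abundant, any at 0 throughout one line, those on scaffold numbers with at least 3 members, and the pair at the filter's edge. The gene with the smallest p of each list is also named, except for the chlorophyll, Rubisco, seed storage and berberine bridge lists. No sequences were used here.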

Additional observations from a re-analysis of the deposited data

How the results depend on the processing

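The 14 alternatives changed scaling, filter, pseudocount, model or library set. Of 376 refits of the 29 named members, 338 kept direction and call. Median-centring gave 35 members higher and 11 lower (all gene models 1940 and 1384), quantile normalization 18 members lower (all 1433 higher, 1671 lower), rescaling to a sum of 1000000 gave 1285 gene models higher, the 5 FPKM filter 10 of 97 members higher, and no filter 1784 gene models lower. Without 1 library, members higher ranged from 9 to 17 and lower from 11 to 20, and all gene models from 348 to 650 higher and from 1345 to 2491 lower; the cause was not tested, beyond there being fewer libraries or genes to test.

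Signs turned for uncalled members only: the log2 fold change, before the subtraction, of Nitab4.5_0003564g0010 was 0.0139 after median-centring, that of Nitab4.5_0000390g0040 0.0437 after quantile normalization and 0.0571 after median-centring, and that of Nitab4.5_0011391g0010 0.0342 after median-centring. Without 1 library, that of Nitab4.5_0000883g0180 ranged from -0.0714 to 0.107; it was negative without GDH64 replicate 3 (-0.00061) or MuGDH64 replicate 2.

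The replicate block gave 20 members higher and 30 lower, and 712 and 3279 gene models. Among named members, it moved Nitab4.5_0000074g0050 over the threshold (adjusted p = 0.0530) and Nitab4.5_0007566g0010 under it (0.0321). Equal library numbers did not deviate together (r = 0.0148, 0.0131 and 0.0512 for numbers 1, 2 and 3), so the numbers were not taken as pairs. Depth is unknown, so no counting error could be given, and low members are the least certain.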
